A study of Mus musculus with 4 samples.

Results

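The 10 genes described here encode subunits of protein kinase A (PKA) and the transcription factors and coactivators through which that kinase acts on genes. They were taken by name from the deposited tables: the catalytic subunit genes Prkaca and Prkacb, the regulatory subunit genes Prkar1a and Prkar2b, the CREB family genes Creb1, Crem and Atf1, and the coactivator genes Crtc1, Crtc2 and Crtc3. All 10 were found among 27933 genes, and all 10 passed the filter on low counts that left 13348 genes for testing. The libraries came from melanocyte stem cells, which supply hair follicles with pigment cells and were sorted by flow cytometry from mouse skin. Control mice received saline (n = 2 libraries) and stressed mice received RTX, an abbreviation the labels do not spell out (n = 2 libraries), and cells were harvested 12 h after injection. The labels used here give no strain, age, sex or genotype, and do not say whether the libraries of a group came from separate animals or from pools. Spread between libraries, on which all p-values rest, may thus be technical.

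In its resting state PKA is a complex in which regulatory subunits hold catalytic subunits inactive. Cyclic AMP, made by adenylyl cyclases downstream of receptors coupled to the stimulatory G protein, binds the regulatory subunits and frees the catalytic ones. These phosphorylate CREB and its relatives CREM and ATF1, which bind cAMP response elements in DNA and recruit the acetyltransferases CBP and p300. The CRTC coactivators reach the nucleus when the salt-inducible kinases that retain them in the cytoplasm are switched off. In melanocytes this route links the melanocortin receptor to Mitf and pigment synthesis, and β-adrenergic receptors for noradrenaline use the same second messenger. RNA levels of these genes do not report kinase activity or CREB phosphorylation.

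Levels are given as CPM, counts scaled to a common library total after TMM normalization. Library totals were between 9273652 and 11854280 counts, and 3 counts, the most that a count of 0 allows, correspond to 0.253 to 0.323 CPM; that limit covers counting error only. The 9 melanocyte markers summed to 22930 and 21866 CPM in the controls and to 40033 and 37418 CPM in the stressed libraries, so defining genes of the labelled cell type were abundant in each library. The 17 keratinocyte markers summed to 30205 and 18640 CPM in the controls and to 12405 and 10752 CPM in the stressed libraries. None of them was at 0 in all libraries. Fitted values were lower for 17 of 17, but only 11 had both stressed libraries below both controls, against 22.9% of all tested genes. Dsg3 and Cdh1 were near level, at log2 differences of -0.0043 and -0.031. Fibroblast and immune markers summed to at most 23.5 and 40.0 CPM and endothelial markers to at most 1.5 CPM in any library, and Lum, Cdh5 and Cldn5 were at 0 in all 4. The mitochondrial share of counts was 0.906% for control replicate 1, 2.07% for control replicate 2, 0.479% for stressed replicate 1 and 0.405% for stressed replicate 2, and thus lower in both stressed libraries and highest in control replicate 2. In bulk samples, fewer cells of a type and less RNA per cell cannot be told apart, and the part of other cells and of the mitochondrial share in the differences below was not tested except where a value is given.

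Promoters are shown first, because the CREB factors bind the cAMP response element, which some genes of the pathway carry themselves. From RefSeq (GRCm38.p6, the assembly of mm10), 17 promoter windows of 8 of the 10 genes were searched. Crem and Crtc2 were not searched and are named only, so the counts below do not cover them. The 250 bases before each start were searched for the full element TGACGTCA, which reads the same on both strands, and for its core TGACG on either strand, which every full element contains. The full element was found for 1 of the 8 genes, Prkar1a, and in 1.77% of all genes with a window. The core was found for 4 of the 8, against 19.8% of all genes and 17.8% of all windows. A match is a description of these letters, not a site of binding, and genes with several annotated starts have more windows in which to find one. The 8 genes had 17 windows, while all 27025 genes had 32851, so the shares by gene are not on equal terms. For each of these 4 genes 1 stretch with a match is printed, 5′ to 3′ in the direction of the gene, with the matches in capitals. Each stretch ends short of any annotated exon of the 10 genes, and exons of other genes were not checked.
Prkar1a, chr11:109650699-109650920, plus strand: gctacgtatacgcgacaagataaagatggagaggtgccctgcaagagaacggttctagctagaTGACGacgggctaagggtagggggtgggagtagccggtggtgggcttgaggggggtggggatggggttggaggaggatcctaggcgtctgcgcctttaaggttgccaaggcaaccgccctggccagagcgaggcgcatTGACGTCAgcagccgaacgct
Prkaca, chr8:83972728-83972977, plus strand: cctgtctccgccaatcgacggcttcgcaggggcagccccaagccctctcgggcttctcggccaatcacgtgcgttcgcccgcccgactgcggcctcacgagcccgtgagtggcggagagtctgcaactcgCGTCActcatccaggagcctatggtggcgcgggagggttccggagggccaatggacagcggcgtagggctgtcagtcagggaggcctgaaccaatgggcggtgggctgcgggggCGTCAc
Prkacb, chr3:146812991-146813196, minus strand: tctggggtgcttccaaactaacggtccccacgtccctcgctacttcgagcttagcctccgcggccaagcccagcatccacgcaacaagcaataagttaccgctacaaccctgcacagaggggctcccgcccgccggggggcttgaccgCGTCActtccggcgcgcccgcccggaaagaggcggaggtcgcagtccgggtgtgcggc
Atf1, chr15:100227609-100227818, plus strand: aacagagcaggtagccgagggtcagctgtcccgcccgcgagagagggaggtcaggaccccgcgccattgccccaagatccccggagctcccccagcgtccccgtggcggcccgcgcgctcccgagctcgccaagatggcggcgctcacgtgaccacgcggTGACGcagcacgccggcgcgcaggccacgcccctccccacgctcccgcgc
The Prkar1a stretch precedes 1 of several annotated starts of that gene and lies inside the gene span given below. It holds a core and, nearer to that start, the full element, in which the cores of both strands overlap. The other Prkar1a windows hold no full element. Prkaca has 2 cores, and Prkacb and Atf1 have 1 each. The windows of Creb1, Crtc1, Crtc3 and Prkar2b hold neither, including that of Crtc3, which had the smallest p of the 10 genes in the comparison below. Of the 4 genes with a match, Prkar1a and Prkacb had higher values in both stressed libraries, while Prkaca and Atf1 overlapped between the groups. Among all tested genes 21.8% were higher without overlap. Whether a match goes with a difference between the groups was not tested.

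The comparison asks whether RNA for this signalling machinery differed between cells of stressed and control mice. Crem and Crtc3 had the largest differences, at 0.69 and 0.57 log2 units higher in stressed cells, and each stressed library also exceeded both controls for Prkacb, Prkar1a and Prkar2b. Creb1, Atf1, Prkaca and Crtc2 overlapped between the groups, and Crtc1 was slightly lower in both stressed libraries. None of the 10 passed edgeR's quasi-likelihood test at a Benjamini-Hochberg adjusted p below 0.05, 2 had an unadjusted p below 0.05 (0 when either stressed library was left out), and DESeq2 and limma-voom also called 0 of the 10. The groups did not overlap in 6 of the 10 genes, 5 higher and 1 lower. Over all 13348 tested genes that share was 44.7%, made up of 21.8% higher and 22.9% lower. An unadjusted p below 0.05 was found by edgeR for 12.8% of all tested genes (1705), 5.17% higher and 7.6% lower. edgeR and limma-voom called 0% of all tested genes at an adjusted p below 0.05, while DESeq2 called 4.4% (587), 1.73% higher and 2.67% lower. With control replicate 1 or 2 left out edgeR called 866 and 995 genes, none of them among the 10. The median log2 difference of the 10 genes was 0.20, beside -0.0091 over all tested genes.

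**Figure D1:**
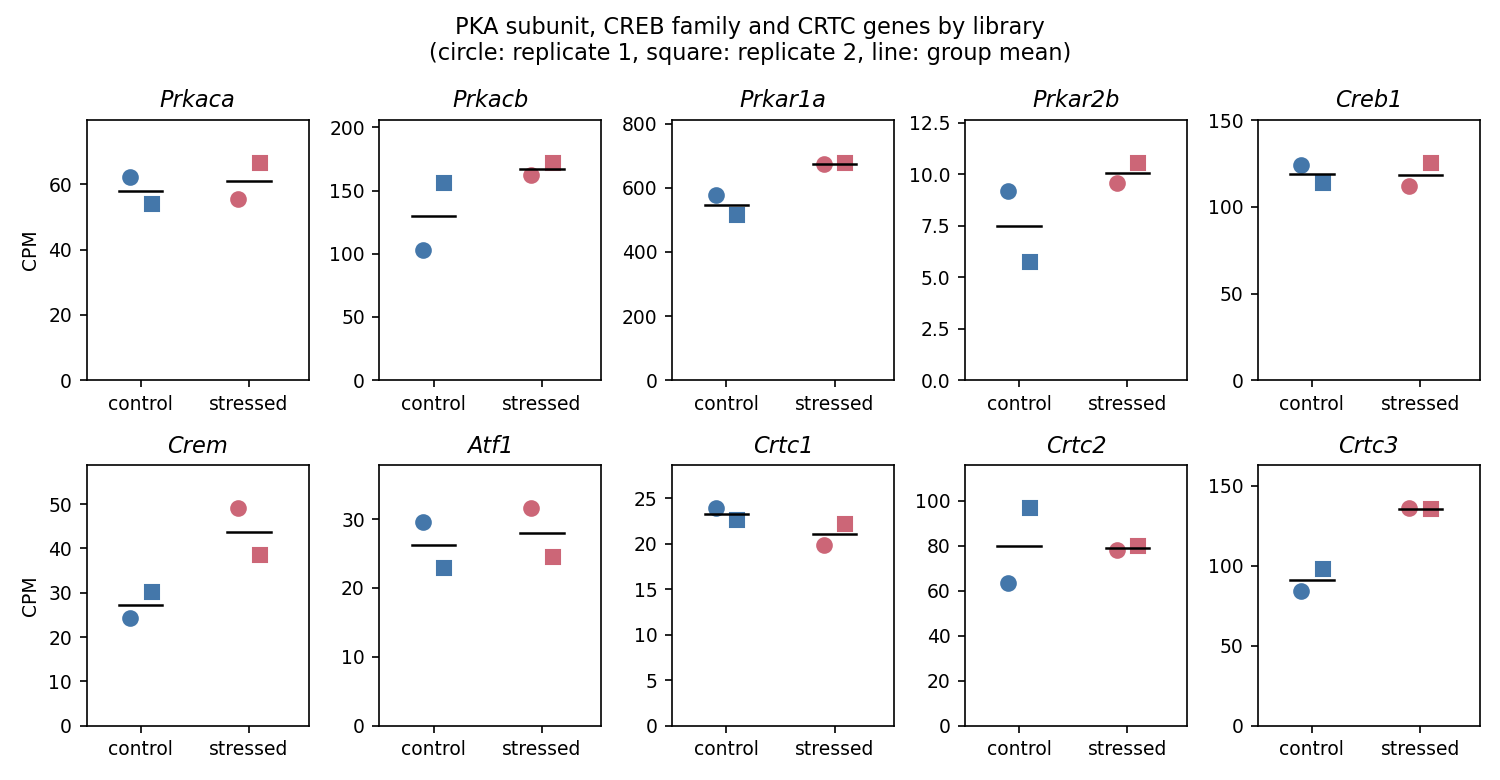
CPM (vertical axis, from 0) of the 10 genes in control and stressed libraries; circles are replicate 1, squares replicate 2 and lines the group means. The stressed libraries lie above both controls for Prkacb, Prkar1a, Prkar2b, Crem and Crtc3, below them for Crtc1, and overlap them for Prkaca, Creb1, Atf1 and Crtc2.

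Per length of all exons merged, the regulatory subunit genes included the most abundant of the 10 and the second least abundant. By the mean length of coding transcripts Prkar2b was the least abundant, at 3.22 CPM per kilobase beside 3.90 for Crtc1. Prkar1a (chromosome 11, 109649405-109669656, mm10, plus strand) encodes the type I alpha regulatory subunit, whose loss in people causes Carney complex, a disorder with pigmented skin lesions. Control replicates 1 and 2 had 579 and 514 CPM, and stressed replicates 1 and 2 had 673 and 677 CPM; values of 2 libraries are given in this order throughout. Both stressed libraries were above both controls, and the stressed pair differed from each other by 0.0093 log2 units against 0.17 in the control pair. The edgeR log2 fold change was 0.30 with a standard error (SE) of 0.20, a 95% interval of -0.17 to 0.78 and an adjusted p of 0.58. Prkar2b (chromosome 12, 31958476-32061296, minus strand), the type II beta regulatory subunit best known from fat and brain, was at 9.21 and 5.76 CPM in control against 9.58 and 10.5 CPM in stressed libraries. The lower stressed library was close to the higher control, so the separation was narrow. Its difference of 0.43 (SE 0.40, adjusted p = 0.73 by edgeR) became 0.81 when control replicate 1 was left out and 0.13 when control replicate 2 was.

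The catalytic subunit genes differed in how alike their controls were. Prkaca (chromosome 8, 83972978-83996445, plus strand) encodes C-alpha, the most widely expressed catalytic subunit. Its levels were at 62.2 and 53.8 CPM in control against 55.6 and 66.5 CPM in stressed libraries, so each group spanned nearly the same range. The log2 difference was 0.073 (95% interval -0.41 to 0.56), and its sign changed when control replicate 2 or stressed replicate 2 was left out. Prkacb (chromosome 3, 146729574-146812990, minus strand) encodes C-beta, which exists as several splice forms with different first exons. It was at 103 and 156 CPM in control against 163 and 172 CPM in stressed libraries. Control replicate 2 was nearer to the stressed libraries than to its own partner. The difference of 0.37 (SE 0.24, 95% interval -0.21 to 0.94, edgeR adjusted p = 0.59) was accordingly 0.10 when control replicate 1 was left out and 0.70 when control replicate 2 was.

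Within the kinase, the balance of subunit RNAs can be followed inside each library. Dividing CPM by the length of each gene's exons in kilobases, the summed Prkar1a and Prkar2b level was 3.51 and 2.92 times the summed Prkaca and Prkacb level in control libraries, against 3.70 and 3.29 times in stressed libraries. These groups overlap, and with 2 libraries a side the smallest two-sided p an exact permutation test can give is 0.333. Prkar1a made up 86.8% and 86.4% of the per-length RNA of the regulatory genes Prkar1a, Prkar1b, Prkar2a and Prkar2b in control libraries, against 89.7% and 89.1% in stressed libraries. Prkar2a, the type II alpha subunit, made up 11.4% and 11.8% in control, against 8.47% and 8.92% in stressed libraries. Prkar1a therefore took a larger, and Prkar2a a smaller, share of the regulatory RNA in both stressed libraries. Prkaca was 69.8% of the catalytic per-length RNA in control replicate 1 and between 56.7% and 59.7% in the other three libraries.

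Of the CREB family genes, Crem had the largest difference and Creb1 the smallest. Creb1 (chromosome 1, 64532645-64604548, plus strand), the founding member, was at 124 and 114 CPM in control against 112 and 125 CPM in stressed libraries. The groups covered the same range, and the log2 difference of -0.0054 had a 95% interval of -0.43 to 0.42, which bounds the precision of that near-zero value. Atf1 (chromosome 15, 100227819-100261244, plus strand), which can pair with CREB, was at 29.6 and 22.9 CPM in control against 31.5 and 24.6 CPM in stressed libraries. In each group replicate 1 was the higher library, and the difference of 0.098 (95% interval -0.57 to 0.76) was smaller than the gap inside either pair.

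Crem, on chromosome 18, encodes both activators and, from an internal promoter that cAMP induces, the short repressor ICER. It was at 24.2 and 30.1 CPM in control against 49.0 and 38.5 CPM in stressed libraries. Both stressed libraries exceeded both controls. The log2 difference was 0.69 with an SE of 0.25 and a 95% interval of 0.076 to 1.30, at an unadjusted p of 0.033 and an edgeR adjusted p of 0.34. It lay between 0.50 and 0.86 with 1 library left out. The ratio of Crem to Creb1 in the same library was 0.195 and 0.264 in CPM in control, against 0.438 and 0.307 in stressed libraries. Per kilobase of exon the ratio was 0.455 and 0.616 in control, against 1.02 and 0.716 in stressed libraries. Gene-level counts add the activator and ICER forms together, so which form differed was not measured, and 1.75% of the Crem exon bases are shared with the gene Gm6225.

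Of the coactivators, Crtc3 had the largest difference. Crtc3 (chromosome 7, 80586627-80688877, minus strand) was at 84.0 and 98.2 CPM in control libraries, against 136 CPM in each stressed library. The stressed libraries differed by 0.0027 log2 units, and both were well above the controls. The log2 difference was 0.57 with an SE of 0.18 and a 95% interval of 0.15 to 1.004, at an unadjusted p of 0.016 and an edgeR adjusted p of 0.27. It was between 0.47 and 0.69 with 1 library left out. Crtc2 (chromosome 3, 90254163-90264125, plus strand), known for its part in gluconeogenesis in the liver, was at 63.4 and 96.6 CPM in control against 78.0 and 80.1 CPM in stressed libraries. Its stressed libraries lay between the controls, and the difference of -0.018 became -0.28 when control replicate 1 was left out and 0.32 when control replicate 2 was. Crtc1 (chromosome 8, 70382355-70439579, minus strand), the form best known from neurons, was at 23.9 and 22.6 CPM in control against 19.9 and 22.2 CPM in stressed libraries. The higher stressed library was close to the lower control, so the separation was narrow. The difference of -0.14 (95% interval -0.75 to 0.46) was smaller than its SE of 0.25. The Crtc3 to Crtc2 ratio in CPM was 1.32 and 1.02 in control, against 1.74 and 1.69 in stressed libraries. Whether the difference of Crtc3 differs from those of the other coactivators was not tested.

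**Figure D2:**
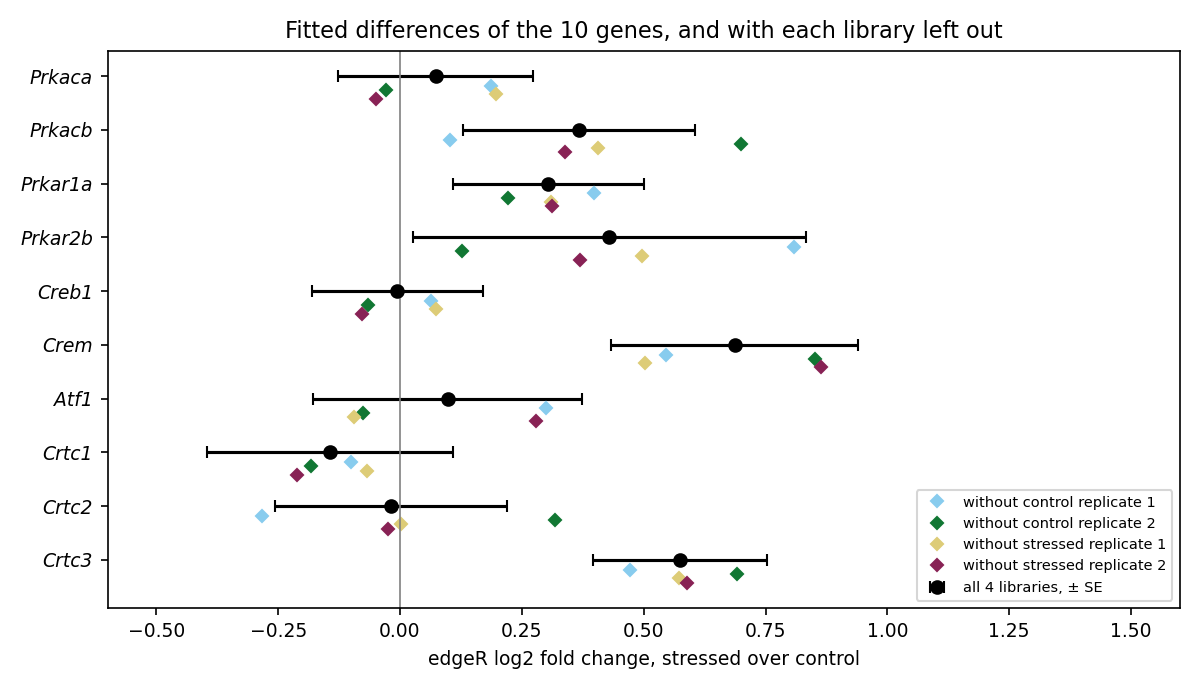
Log2 fold change of stressed over control fitted by edgeR (horizontal axis) for each of the 10 genes, with bars of 1 SE, and diamonds for the fits without each library. The diamonds stay on the higher side for Prkacb, Prkar1a, Prkar2b, Crem and Crtc3 and on both sides of 0 for Prkaca, Creb1, Atf1 and Crtc2.

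The controls were at least as far apart as the groups in most of these genes, as they were in most of all tested genes. The absolute log2 difference between the groups exceeded the gap between the controls in 4 of the 10 genes, against 43.4% of all tested genes. The median control gap of the 10 was 0.27 log2 units and the median stressed gap 0.15, beside 0.36 and 0.25 over all tested genes. Control gaps were widest for Prkar2b, in which control replicate 2 was lower by 0.66 log2 units, and for Crtc2 and Prkacb, in which it was higher by 0.61 and 0.60. Among the 45 pairs of these genes, the profiles of Prkaca and Creb1 were the most alike over the 4 libraries, with a mean absolute difference of 0.045 log2 units after centring each gene on its own mean. Crem and Crtc3 differed by 0.11 on that measure, and the least alike pair, Prkar2b and Crtc2, by 0.43. These values describe only 4 libraries.

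Levels can be compared between genes only per length. Per kilobase of exon, Prkar1a had a mean of 141 CPM over the 4 libraries and lay at percentile 98.1 of all tested genes. It was followed by Prkaca at 26.0, Crtc2 at 19.4, Prkacb at 16.9, Crtc3 at 11.5, Atf1 at 8.87, Creb1 at 8.64, Crem at 6.01, Prkar2b at 2.40 and Crtc1 at 1.98 CPM per kilobase. In the controls, Crtc2 at 19.5 ± 5.7 and Prkacb at 14.8 ± 4.3 CPM per kilobase (SD, n = 2) overlapped within their spread, as did Atf1 at 8.57 ± 1.55 and Creb1 at 8.66 ± 0.53, and Prkar2b at 2.05 ± 0.67 and Crtc1 at 2.08 ± 0.08. Within each control library Crtc2 was nevertheless above Prkacb, at 15.5 against 11.7 and at 23.6 against 17.8. Atf1 and Creb1, and Prkar2b and Crtc1, changed order between the controls. The order below Prkar1a depends on the length used. The exons of Creb1 span 13742 bases when all its forms are merged, but its coding transcripts in GENCODE M21 average 3124 bases. With that length Creb1 stood at 38.0 CPM per kilobase, second after Prkar1a at 234, and Prkacb at 36.2 passed Prkaca at 32.4.

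**Figure D3:**
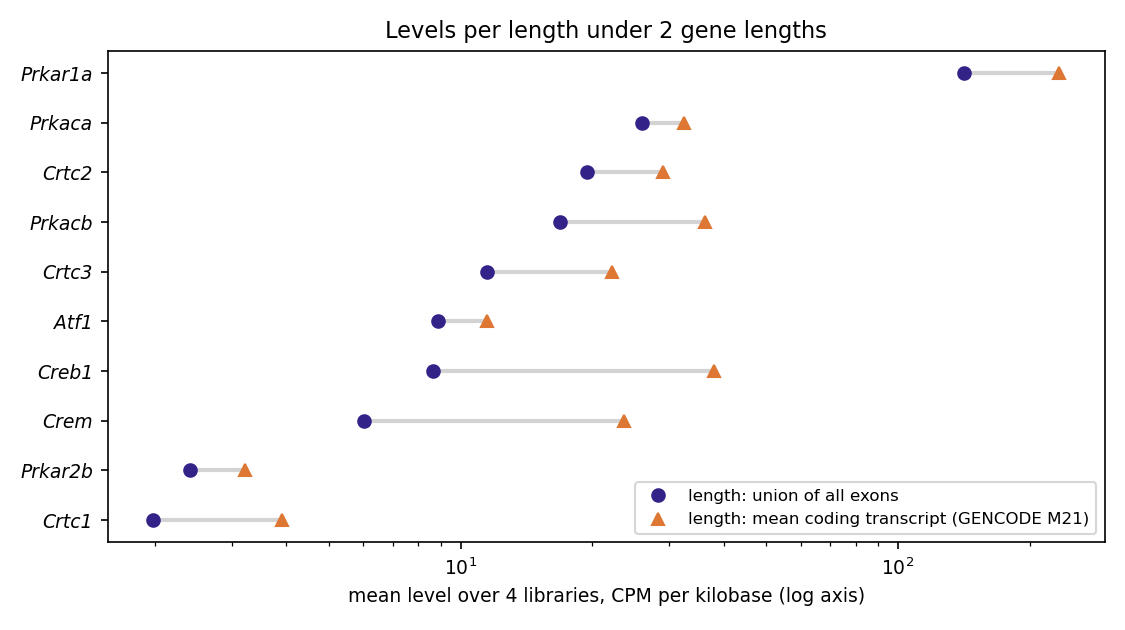
Mean level over the 4 libraries in CPM per kilobase (log axis) of the 10 genes, with the length taken as all exons merged (circles) or as the mean coding transcript (triangles). Prkar1a is highest by both lengths, while Creb1 moves from 8.64 to 38.0.

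Of the genes for endogenous PKA inhibitors and the other PKA subunits, 6 of 6 tested had lower fitted values in stressed cells, 4 with groups that did not overlap, and the median log2 difference was -0.35. Over all tested genes 49.1% had higher fitted values, and 22.9% were lower without overlap. Pkib, which encodes a member of the PKI family of peptides that block the catalytic subunits, was at 102 and 62.5 CPM in control against 41.8 and 36.2 CPM in stressed libraries. DESeq2 called it lower (log2 fold change -1.07, adjusted p = 0.028), and edgeR did not call any of the 6. The DESeq2 call was lost without control replicate 1 (-0.68, adjusted p = 0.44), without stressed replicate 1 (-1.18, adjusted p = 0.33) and without stressed replicate 2 (-0.97, adjusted p = 0.95). Pkia was at 27.3 and 25.7 CPM in control against 18.02 and 16.5 CPM in stressed libraries, and Pkig at 24.5 and 21.5 and at 16.9 and 17.1 CPM. For all 3 inhibitor genes each stressed library was therefore below both controls, although none passed edgeR's test. Of the subunits, Prkar2a was at 112 and 103 CPM in control against 93.7 and 100.02 CPM in stressed libraries. Prkx, which encodes a related kinase, was level at 90.2 and 95.3 against 95.8 and 87.6 CPM, and Prkar1b was low, at 1.29 and 3.56 against 1.88 and 2.18 CPM.

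Summed keratinocyte marker RNA and the 3 inhibitor genes were lower in both stressed libraries. Of the 3, only Pkib stayed in proportion to the sum of this marker list. Per 1000 CPM of summed keratinocyte markers, Pkib was at 3.36 and 3.35 CPM in control against 3.37 and 3.37 CPM in stressed libraries, a comparison chosen after its values were seen. The same ratio ranged from 0.904 to 1.53 for Pkia, from 0.812 to 1.59 for Pkig, from 3.70 to 9.30 for Prkar2a and from 1.03 to 1.76 for Akap7. Single markers did not all follow their sum. Cdh1 was at 1268 and 1171 CPM in control against 1146 and 1239 CPM in stressed libraries. Krt79 was at 2698 and 2647 against 1229 and 1098 CPM. Pkib had between 398 and 948 counts, so counting error alone exceeds the spread of its ratio. The part of keratinocyte RNA in the differences of the inhibitor genes, Prkar2a and Akap7 was not tested. Per length, the summed inhibitor RNA equalled 56.8% and 42.6% of the summed Prkaca and Prkacb RNA in control, against 29.5% and 24.2% in stressed libraries.

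**Figure D4:**
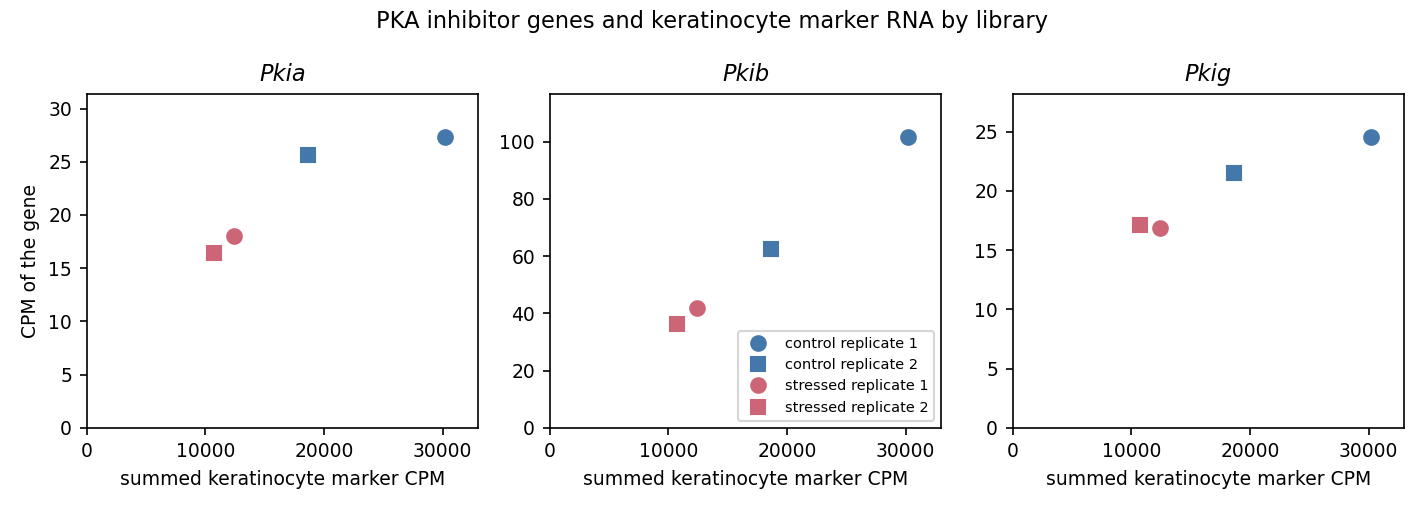
CPM of the inhibitor genes Pkia, Pkib and Pkig (vertical axes, from 0) against the summed CPM of 17 keratinocyte markers (horizontal axis), 1 point per library. The 4 Pkib points lie on a line through 0, at 3.35 to 3.37 CPM per 1000 CPM of markers, and the points of Pkia and Pkig do not.

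Upstream of the kinase, most tested genes of cAMP production had higher fitted values in stressed cells. Of 12 listed genes 9 were tested, 8 had higher fitted values and 1 lower, with a median log2 difference of 0.33. The groups did not overlap in 3 higher and 1 lower. The shares over all tested genes were 49.1% with higher fitted values, 21.8% higher without overlap and 22.9% lower without overlap. Adcy7, an adenylyl cyclase, was at 97.2 and 85.1 CPM in control against 139 and 171 CPM in stressed libraries. DESeq2 called it higher (log2 fold change 0.77, adjusted p = 0.033), a call that was lost without control replicate 2 (0.67, adjusted p = 0.14), without stressed replicate 1 (0.91, adjusted p = 0.40) and without stressed replicate 2 (0.61, adjusted p close to 1). Adcy2, another cyclase, overlapped between the groups at 113 and 173 against 161 and 131 CPM, with a log2 difference of only 0.027. Gnas, which encodes the stimulatory G protein subunit, was at 10.2 and 6.02 against 11.2 and 9.09 CPM. Those low values need care, since 21.97% of the Gnas exon bases overlap the genes Gm20721 and Nespas in the annotation and the headers record no option to count reads shared by genes.

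Anchoring and regulatory partners showed smaller medians. Of 16 AKAP genes, which tether PKA to places in the cell, 12 were tested, with 3 higher, 9 lower and a median of -0.076. Akap7, chosen after its values were seen as the 1 gene of this list with an unadjusted p below 0.05, was at 31.1 and 32.8 CPM in control against 18.8 and 13.5 CPM in stressed libraries (log2 fold change -0.99, edgeR adjusted p = 0.24). Akap8 was at 153 and 215 against 176 and 156 CPM and Akap9 at 169 and 148 against 152 and 161 CPM. All 9 coactivator and CRTC regulator genes were tested, 4 higher and 5 lower, with a median of -0.025. The coactivator gene Crebbp was at 99.9 and 108 CPM in control against 116 and 118 CPM in stressed libraries, and Ep300 at 89.3 and 116 against 111 and 91.3 CPM. Sik1, a CRTC kinase that is itself a CREB target, was higher in replicate 1 of each group, at 105 and 62.2 against 98.1 and 48.1 CPM. Ppp3ca, a catalytic subunit of calcineurin, which dephosphorylates CRTCs, was at 152 and 174 against 165 and 161 CPM, and the kinase gene Mark2 at 160 and 163 against 152 and 159 CPM. Neither edgeR nor DESeq2 called a gene of these lists.

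Other kinases that can phosphorylate CREB, and other bZIP relatives, were likewise without a call. Of the 7 kinase genes 4 had higher and 3 lower fitted values, with a median of 0.24. The groups did not overlap in 4 higher and 1 lower of them, against 21.8% and 22.9% of all tested genes. Akt1 was at 323 and 339 CPM in control against 417 and 534 CPM in stressed libraries, and Rps6ka4, which encodes the kinase MSK2, at 84.0 and 92.5 against 99.0 and 109.7 CPM. Of the 11 relatives 10 were tested, 4 higher and 6 lower, with a median of -0.041. Crebrf was at 126 and 191 against 182 and 155 CPM, and Crebzf at 144 and 128 against 169 and 158 CPM.

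Genes known as CREB targets divided in direction. Of 18 listed, 16 were tested, 10 with higher and 6 with lower values and a median log2 difference of 0.22. edgeR called none of them, and DESeq2 called 2 higher and 4 lower. Over all tested genes 49.1% had higher fitted values, and DESeq2 called 1.73% higher and 2.67% lower. The higher pair was Nr4a2, an orphan nuclear receptor gene, at 20.4 and 11.2 against 37.9 and 38.4 CPM, and Pde4d, a phosphodiesterase that degrades cAMP, at 18.6 and 18.6 against 34.0 and 53.7 CPM. The lower genes were Fos, Junb, Egr1 and Dusp1, immediate early genes that MAP kinase signalling also induces. Egr1 was at 2933 and 3002 CPM in control against 1753 and 1281 CPM in stressed libraries, and Fos at 5968 and 11391 against 4836 and 3327 CPM. The Fos and Junb calls held only in the fit without control replicate 1, of the 4 DESeq2 fits with 1 library left out. Without control replicate 2 the Fos log2 fold change by DESeq2 was -0.55, from -1.08, and that of Junb -0.52, from -0.95. Without stressed replicate 1 they were -1.38 (adjusted p = 0.062) and -1.20 (adjusted p = 0.12), and without stressed replicate 2 they were -0.84 and -0.75. The Egr1 and Dusp1 calls were lost only without stressed replicate 2, with log2 fold changes of -0.75 and -0.71 (adjusted p = 0.71 and 0.87). Nr4a2, at a log2 fold change of 1.28, was no longer called without control replicate 2 (0.91) or without stressed replicate 1 or 2 (1.29 and 1.27). Pde4d, at 1.24, was called in none of the 4 fits, although its log2 fold change was 1.24 without either control library and 1.54 without stressed replicate 1; without stressed replicate 2 it was 0.88. DESeq2 called fewer genes of all those tested in the fits without stressed replicate 1 (150) and without stressed replicate 2 (45) than with all 4 libraries (587). Nr4a1 overlapped between the groups, at 896 and 589 against 989 and 749 CPM.

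**Figure D5:**
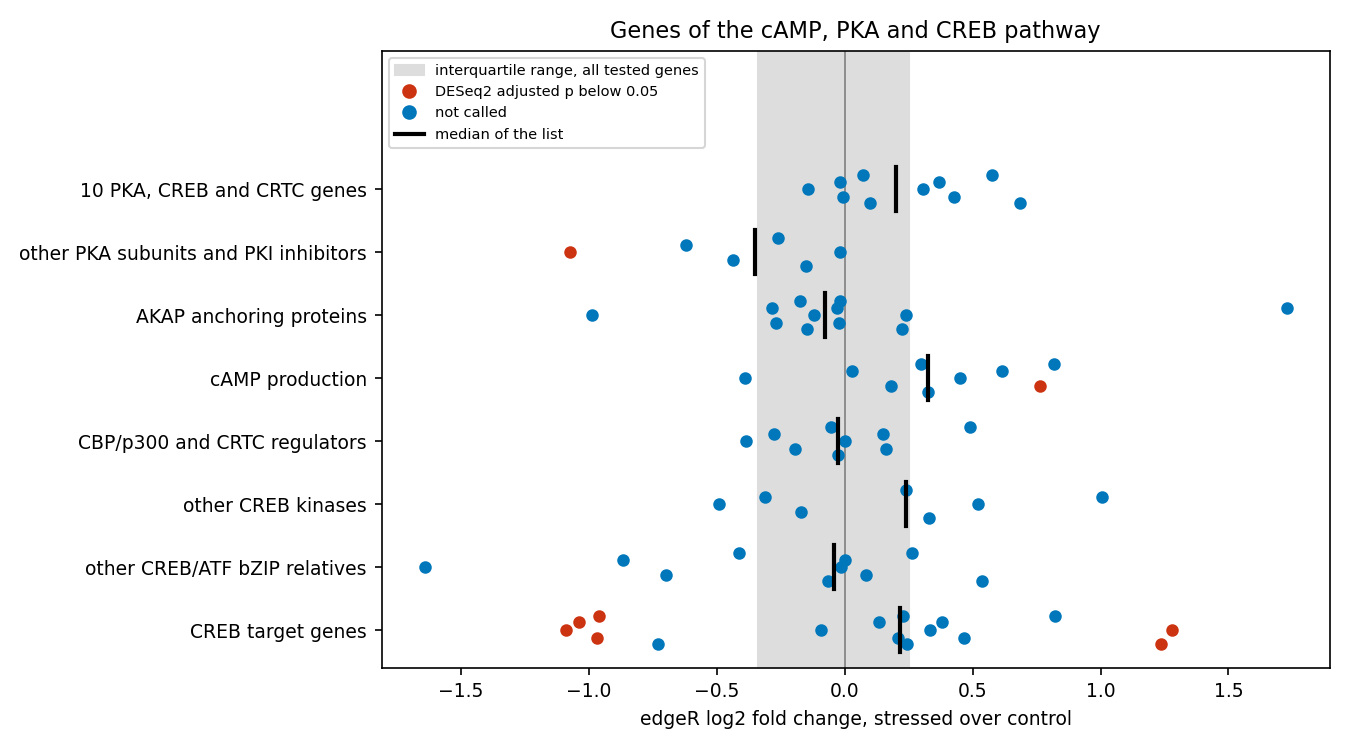
Log2 fold change of stressed over control fitted by edgeR (horizontal axis) for the tested genes of each list, 1 point per gene, with the list median as a bar and the interquartile range of all tested genes shaded; red points were called by DESeq2. The inhibitor and subunit list lies wholly below 0, with Pkib at -1.07, and the CREB targets have called genes on both sides.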

How the data were processed

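Per the labels' protocols, RNA-seq used Smart-Seq V4. The authors deposited unnormalized counts of reads for each gene; per the file headers these come from featureCounts 1.6.1 (exons summed by gene name, mapping quality of at least 30, no strand or paired-end option, mm10). STAR 2.5.3, Trim Galore 0.4.1 and DESeq2 1.22.2 are named in the submitters' processing notes. Stressed replicates 1 and 2 carry the numbers 2 and 3 in the headers. Reads of overlapping antisense genes cannot be told apart.

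Genes were kept by filterByExpr of edgeR 4.0.16 (R 4.3.3, minimum count 10), scaled by TMM and compared with the quasi-likelihood F-test, two-sided, with p adjusted by Benjamini-Hochberg over 13348 genes. The SE is the absolute log2 fold change over the square root of F. Gap values used log2 CPM with a prior count of 2. DESeq2 1.42.0, limma-voom (limma 3.58.1), other scalings and filters, a replicate block and each library left out were alternatives; leave-out fits kept the 13348 genes and assume that the lone library varies like the other group. DESeq2 leave-outs, the GENCODE lengths and the unscaled overlap count were added after seeing the data. The scripts were tested on simulated data. Named were the 10 genes and, per list, the genes called by either tool, the 2 most abundant, and 9 fixed genes. The members and lists were chosen with earlier results of these data known. All 10 genes overlapped the gene of the same symbol, chromosome and strand in GENCODE M21.

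The libraries of each pair differed by more than counting noise (chi-square per degree of freedom 54.0 in the control and 17.99 in the stressed pair), so no library repeats another; this does not show that they came from separate animals.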

Additional observations from a re-analysis of the deposited data

How the results depend on the processing

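None of the 10 genes was called under any of the 11 alternatives tried for them, nor by DESeq2 with each library left out; edgeR gave 2 of them an unadjusted p below 0.05, against 1 without control replicate 1, 3 without control replicate 2 and 0 without either stressed library. The count over all genes, 0 by edgeR (1705 at an unadjusted p below 0.05), was 587 by DESeq2 and 760 with no low-count filter. With 1 library left out it ranged from 0 to 995, with 866 without control replicate 1, 995 without control replicate 2 and 0 without either stressed library (1090 and 682 at an unadjusted p below 0.05). DESeq2 called between 45 and 826 genes with 1 library left out, 150 without stressed replicate 1 and 45 without stressed replicate 2.

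Directions turned only in 4 genes with small differences. With 1 library left out their ranges were -0.050 to 0.20 (Prkaca), -0.078 to 0.074 (Creb1), -0.094 to 0.30 (Atf1) and -0.28 to 0.32 (Crtc2). Prkaca was at -0.028 without control replicate 2 and at -0.050 without stressed replicate 2. Creb1 was at 0.00050 by DESeq2, 0.00040 with DESeq2 size factors, 0.063 without control replicate 1 and 0.074 without stressed replicate 1. Atf1 was at -0.076 without control replicate 2 and at -0.094 without stressed replicate 1. Crtc2 was at 0.0040 by limma-voom, 0.012 with the replicate block, 0.32 without control replicate 2 and 0.0011 without stressed replicate 1. The replicate block left 0 genes called by edgeR (1926 at an unadjusted p below 0.05); the labels share only a number, and the deviations of same-numbered libraries correlated at 0.17 across genes. The number of genes whose groups did not overlap was 6 of 10 under each of 3 other scalings. The log2 ratio of stressed to control for regulatory over catalytic RNA was 0.12, 0.071 with all 6 subunit genes, 0.070 with transcript lengths, -0.0053 in CPM and between -0.0072 and 0.26 with 1 library left out; the cause was not tested.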
